A study of Rattus norvegicus with 6 samples.

Results

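The miR-129 group on the rat miRNA array comprised the 3 mature forms whose array name begins with rno-miR-129-, of 719 rat miRNAs in all: rno-miR-129-5p, rno-miR-129-1-3p and rno-miR-129-2-3p, written below without the species prefix. They were measured by 6 of the 1730 rat probes, 2 for each form. On all 6 arrays both 3p forms were well above background, whereas miR-129-5p was so on none. The forms were singled out because the 3p forms were lower in cultures given interleukin-8 (IL-8). That difference is therefore described here without a test.

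The samples were rat primary skeletal muscle cells (RSkMC), bought frozen at an early passage and isolated from limb muscle of newborn rats. All 6 were kept in medium with 2% horse serum for 11 days of differentiation. In 3 samples IL-8, a chemokine that attracts neutrophils, was present at 1 ng/ml, and 3 control samples are labelled as given no agent. The growth protocol names IL-8 for every sample, so titles and agent labels were followed. The labels do not say whether replicates were separate cultures, so spread and p-values describe these samples and may be technical. The control arrays shared 1 slide, and the IL-8 arrays shared a different one: treatment and slide cannot be told apart. Between 154 and 180 miRNAs were well above background per array, and precision is limited by having 6 arrays. None of 9 muscle-enriched miRNAs, among them miR-1-3p, miR-133a-3p and miR-206-3p, was well above background on any array (highest probe signal 9.23). All 6 fibroblast and smooth muscle miRNAs listed, among them miR-143-3p and miR-21-5p, were so on every array. Their log2 differences with IL-8 lay between -0.083 and 0.0078 after the scaling between arrays described below. These values depend on that scaling, without which the median over all tested miRNAs was 0.235 and not 0.016. The miRNAs that define differentiated muscle were thus not detected in these cultures. Over all 719 rat miRNAs, 537 were well above background on no array and 152 on every array.

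A miRNA hairpin is cut by Drosha and Dicer into a short duplex, and either strand, the 5p or the 3p arm, can be loaded into Argonaute. The loaded strand finds messenger RNAs mainly by its seed, the bases near its 5′ end, and lowers their translation and stability. The miR-129 hairpins are encoded by a pair of genes, Mir129-1 and Mir129-2, and are best known from brain. miR-129-5p is known as a repressor of the transcription factor gene Sox4 and of the cell cycle kinase gene Cdk6. The promoter of MIR129-2 is known to be methylated in several human cancers.

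The hairpins are shown first because they set which arm can be assigned to which gene. In the RefSeq sequences (GRCr8), printed 5′ to 3′ with the 5p and 3p arms in capitals, they read:
Mir129-1: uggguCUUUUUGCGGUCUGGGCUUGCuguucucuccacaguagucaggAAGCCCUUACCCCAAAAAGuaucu
Mir129-2: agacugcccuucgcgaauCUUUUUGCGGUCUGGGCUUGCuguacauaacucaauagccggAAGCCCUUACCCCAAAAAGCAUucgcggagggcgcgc
The 21 bases of miR-129-5p occur in both hairpins, so its signal cannot be assigned to either gene. Only the loop, the flanks and the end of the 3p arm differ. In RefSeq, Mir129-1 lies within LOC120102250, a long non-coding RNA gene, with Snd1 and Lep as the nearest protein-coding neighbours. Mir129-2 lies within no other listed gene, between Hsd17b12 and Ttc17. Whether Mir129-1 is exonic or intronic in LOC120102250 was not analysed here.

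The mature forms, with the seed (bases 2 to 8) in capitals, show which of them could recognise the same targets:
miR-129-5p: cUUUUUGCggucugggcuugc
miR-129-1-3p: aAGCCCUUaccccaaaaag
miR-129-2-3p: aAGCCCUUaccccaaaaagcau
The 3p forms share the seed AGCCCUU, which no further rat mature form in the RefSeq table carries, and no other form carries the seed UUUUUGC of miR-129-5p. Of the 719 array miRNAs 651 were found in that table, the 3 forms among them. As listed, miR-129-1-3p has 19 bases and miR-129-2-3p has 22. All 19 bases of miR-129-1-3p are the first 19 of miR-129-2-3p, which carries 3 further bases, cau, at its 3′ end. Over the same 22 bases the Mir129-1 hairpin reads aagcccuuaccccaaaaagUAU, with the last 3 in capitals, and differs from miR-129-2-3p by a single substitution, C20U, counted from the 5′ end of the mature form with the base of miR-129-2-3p first.

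The array probes are complementary to the 3′ end of each mature form, and the label was attached to the RNA at that end. The probes show how far the array could separate the 3p forms. They are printed with the extra base of the longer probe in capitals:
miR-129-5p, 14 bases: gcaagcccagaccg
miR-129-5p, 15 bases: gcaagcccagaccgC
miR-129-1-3p, 15 bases: ctttttggggtaagg
miR-129-1-3p, 16 bases: ctttttggggtaaggG
miR-129-2-3p, 17 bases: atgctttttggggtaag
miR-129-2-3p, 18 bases: atgctttttggggtaagG
Both probes of miR-129-1-3p match miR-129-2-3p over their whole length as well, leaving only its last 3 bases past the match. Nothing in their sequence separates the 3p forms. The 18-base probe of miR-129-2-3p matches miR-129-1-3p over 15 bases, and the 17-base probe over 14. The 3p forms are therefore uncertain as separate measurements. In rn4, the build of the array files, the 16-base probe is placed on chromosome 4 at 55892214 to 55892228. That interval holds 15 positions, fewer than the probe has bases, and the reason was not analysed. The 18-base probe is placed on chromosome 3 at 78648995 to 78649012. The 15-base probe of miR-129-5p is placed at both loci, on chromosome 3 at 78648955 to 78648969 and on chromosome 4 at 55892173 to 55892187.

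miR-129-5p, the arm shared by the genes, was not well above background on any array. Each probe had 10 spots per array. The mean processed signal of its 15-base probe, in intensity units after background subtraction, was 5.60, 4.23 and 5.46 on control arrays 1 to 3 and 7.67, 4.58 and 2.16 on IL-8 arrays 1 to 3. The groups overlapped, and the highest and the lowest value were both from IL-8 arrays. The 14-base probe lay between -1.81 and 2.96 over the 6 arrays. Of the 60 spots of the longer probe 1 was well above background, and of the 60 of the shorter probe 0 were. Neither probe exceeded the 95th percentile of the 434 negative control spots on any array, which ran from 7.92 to 11.9. That percentile is taken over single spots, while a probe value averages 10. The scanner software called this form not detected on all 6 arrays. No fold change can be given for it.

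miR-129-1-3p was measured by its 16-base probe alone. Its mean signal was 83.4, 85.1 and 99.5 on control arrays 1 to 3 and 79.6, 72.4 and 74.2 on IL-8 arrays 1 to 3. Every control array was above every IL-8 array, although the lowest control (83.4) and the highest IL-8 value (79.6) were close. The group means were 89.3 ± 8.84 in control and 75.4 ± 3.79 with IL-8 (SD, n = 3 each), a ratio of 0.844. All 60 spots were well above background, with a coefficient of variation between 3.68% and 7.90% over the spots of an array.

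miR-129-2-3p was read by its 18-base probe. The mean signal was 122, 122 and 151 on control arrays 1 to 3 and 116, 107 and 109 on IL-8 arrays 1 to 3. Here too the groups did not overlap, with 121.6 as the lowest control value and 116.32 as the highest with IL-8. Control replicate 3 was the highest array for both 3p forms. The means were 131.5 ± 16.8 in control and 111 ± 5.04 with IL-8 (SD, n = 3 each), a ratio of 0.841. Over all tested miRNAs 4 of 167 (2.4%) had unscaled control values above those of every IL-8 array. The 2 forms are among these 4, and were chosen from the same contrast.

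**Figure D1:**
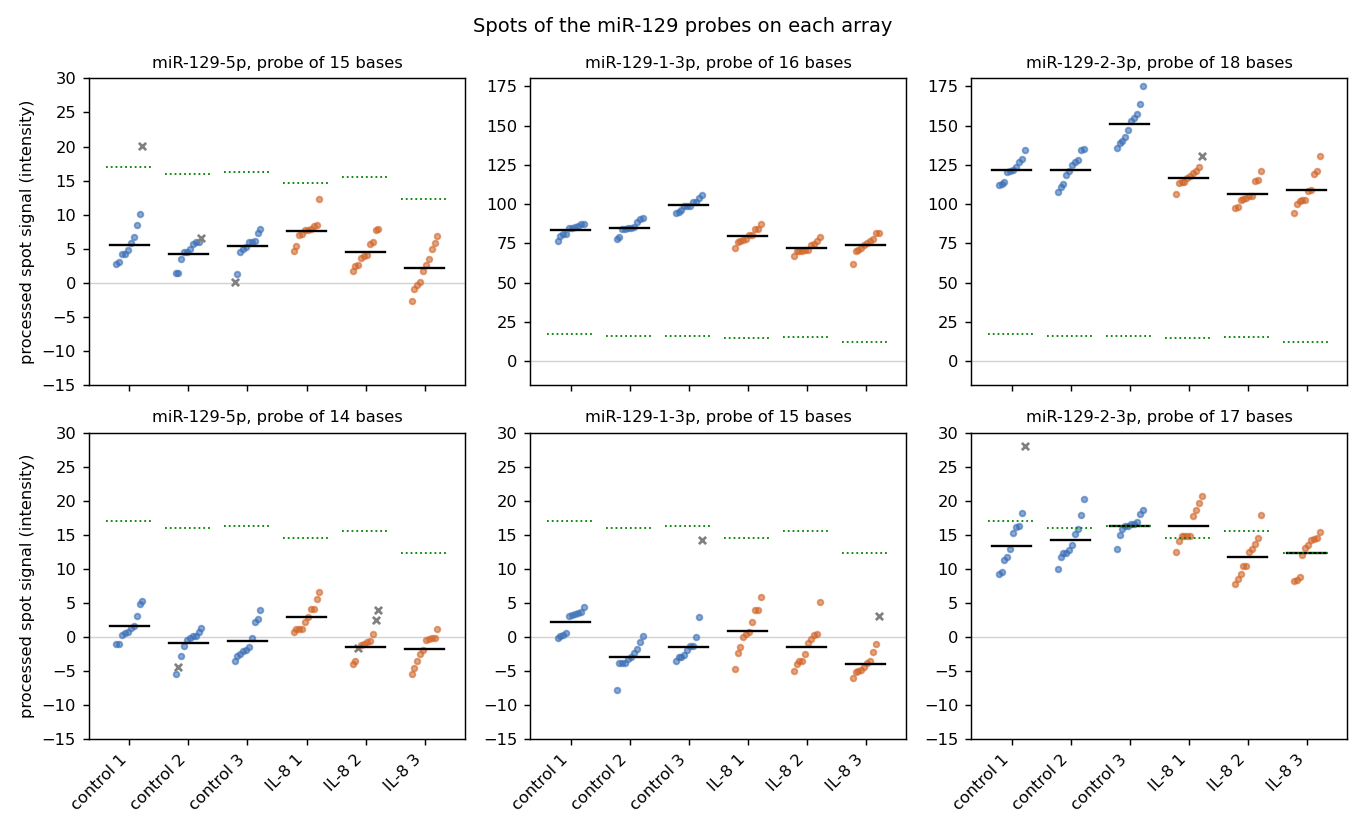
Processed signal (intensity, linear axis) of each of the 10 spots of the 6 miR-129 probes on the 3 control arrays (blue) and the 3 IL-8 arrays (orange). Black bars are array means without outlier spots (grey crosses), and dotted green lines mark the lowest probe signal called well above background on that array. The vertical axis of the 16-base and 18-base probes of the 3p forms spans a wider range, and only those probes lie clear of the dotted lines on all 6 arrays.

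The shorter probe of each 3p form differs from the longer one by a single base, and it lost most or all of the signal. The 15-base probe of miR-129-1-3p lay between -4.01 and 2.18, with 0 of 60 spots well above background, while the 16-base probe on the same arrays lay between 72.4 and 99.5. The 17-base probe of miR-129-2-3p gave 13.4, 14.2 and 16.3 on control arrays 1 to 3 and 16.2, 11.8 and 12.2 on IL-8 arrays 1 to 3, with 20 of 60 spots well above background. Those groups overlapped. The signals were also taken as a share of each array's 75th percentile signal, the scale used below. These shares ran from 2.98% to 3.28% in control and from 2.14% to 2.85% with IL-8, without overlap. That separation appeared only with the scaling. Scaled control levels lay above IL-8 for 23 of the 167 tested miRNAs (13.8%), and no change is read from the 17-base probe. The probe was above the 95th percentile of the negative controls on all 6 arrays and well above background on 2.

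Few other pairs lost as much. Of 554 miRNAs with a pair of nested probes 1 base apart, 141 had the longer probe well above background on all 6 arrays. Among these 141, the shorter probe was well above background on all arrays for 107, on some for 23 and on none for 11 (7.8%). Over the 141 pairs the shorter probe carried a median of 52.2% of the signal of the longer. For miR-129-2-3p it carried 11.6%, the 10th lowest share, and for miR-129-1-3p the mean of the shorter probe was below 0, the 2nd lowest. Only miR-322-3p lay lower, with a longer probe at 24.4. These ranks describe the array and carry no test. Each 3p form thus rests on a single probe.

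**Figure D2:**
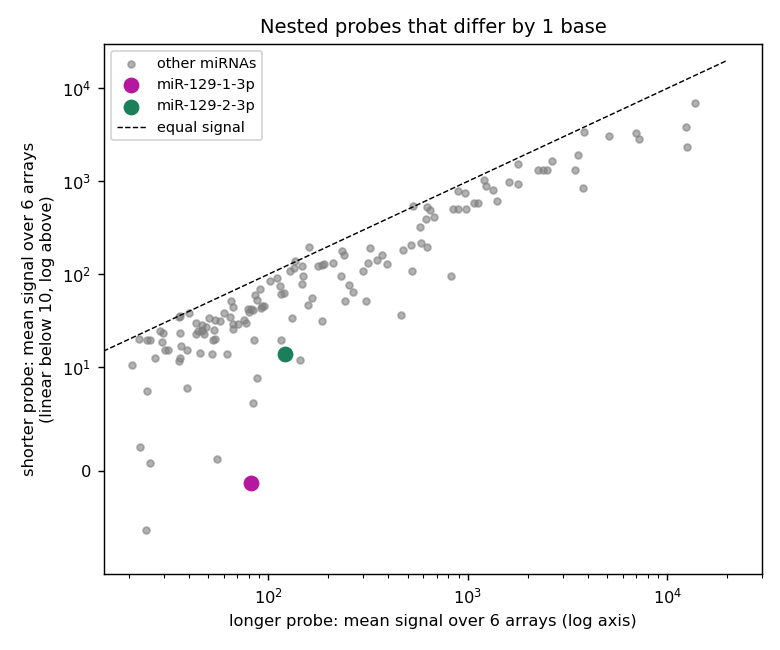
Mean signal over the 6 arrays of the shorter probe (vertical axis, linear below 10 and logarithmic above) against the longer probe (logarithmic axis) for the 141 nested pairs whose longer probe was well above background on all arrays. Points are miRNAs and the dashed line marks equal signal; miR-129-1-3p (magenta) and miR-129-2-3p (green) sit below most miRNAs with a longer probe of similar signal.

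Detection of a 3p arm without its 5p arm was common. Of 282 miRNA names with both arms on the array, 46 (16.3%) had a 3p form that passed on every array and a 5p form that passed on none, miR-129 among them. The reverse held for 49 names, both arms were present on all arrays for 18, neither arm was on any array for 141, and 28 fell in between. Probes differ in brightness, so these counts say which arms passed detection and not which arm was more abundant.

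To compare cultures, each array was divided by its own 75th percentile, taken over 264 probes that passed detection everywhere, and levels are given as log2 of that ratio. The percentile was 440 to 497 on control arrays and 540 to 569 on IL-8 arrays, so the scaling lowers IL-8 values relative to control. On this scale miR-129-1-3p stood at -2.40, -2.48 and -2.32 on control arrays 1 to 3 and at -2.84, -2.92 and -2.86 on IL-8 arrays 1 to 3. All control levels were above all IL-8 levels. Group levels were -2.40 ± 0.08 and -2.87 ± 0.04 (SD, n = 3 each), a log2 difference of -0.47 ± 0.06 (SE) or 0.720-fold. miR-129-2-3p stood at -1.86, -1.96 and -1.72 in control and at -2.29, -2.36 and -2.31 with IL-8. Its levels were -1.85 ± 0.12 and -2.32 ± 0.04 (SD, n = 3 each), with a difference of -0.48 ± 0.07 (SE) or 0.719-fold.

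Over the 167 tested miRNAs the median log2 difference was 0.016, with 94 higher and 73 lower, and the 3p forms had the 4th and the 3rd lowest difference. limma with Benjamini-Hochberg adjustment called 10 miRNAs (5.99%) at adjusted p under 0.05 in the whole table, 5 lower (2.99%) and 5 higher (2.99%). That count changed with the processing, to 0 lower with spike-in scaling and 1 lower without scaling, and no test of the 3p forms is drawn from it. Scaled groups did not overlap for 50 of the 167 (29.9%), and for 23 (13.8%) control lay above IL-8. The forms were chosen from this contrast, so nothing is read from these shares.

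The size of the difference depended on the scaling. Without scaling between arrays the log2 difference was -0.24 for each 3p form (SE 0.10 and 0.11), while the median of all tested miRNAs stood at 0.235. With spike-in scaling the 3p forms stood at -0.27 each and the median at 0.215. With scaling 2.4% of the tested miRNAs, the form itself included, had a difference at or below that of miR-129-1-3p, and 2.99% did without. For miR-129-2-3p the shares were 1.8% and 2.4%. Low shares follow from choosing the forms by this contrast, so nothing is read from them. The spike-in signal itself overlapped between groups, at 3439 to 3581 in control and 3372 to 3716 with IL-8. Averaging in the shorter probe, which is what omitting the filter on dim probes does, gave -0.24 and -0.25. The shorter probes lay at or near the floor of the scale, so this averaging shrinks the difference by construction. Both forms remained lower with IL-8 under all 22 alternatives run, between -0.57 and -0.24. Some of these alternatives could not move the difference, because each form rests on 1 probe.

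**Figure D3:**
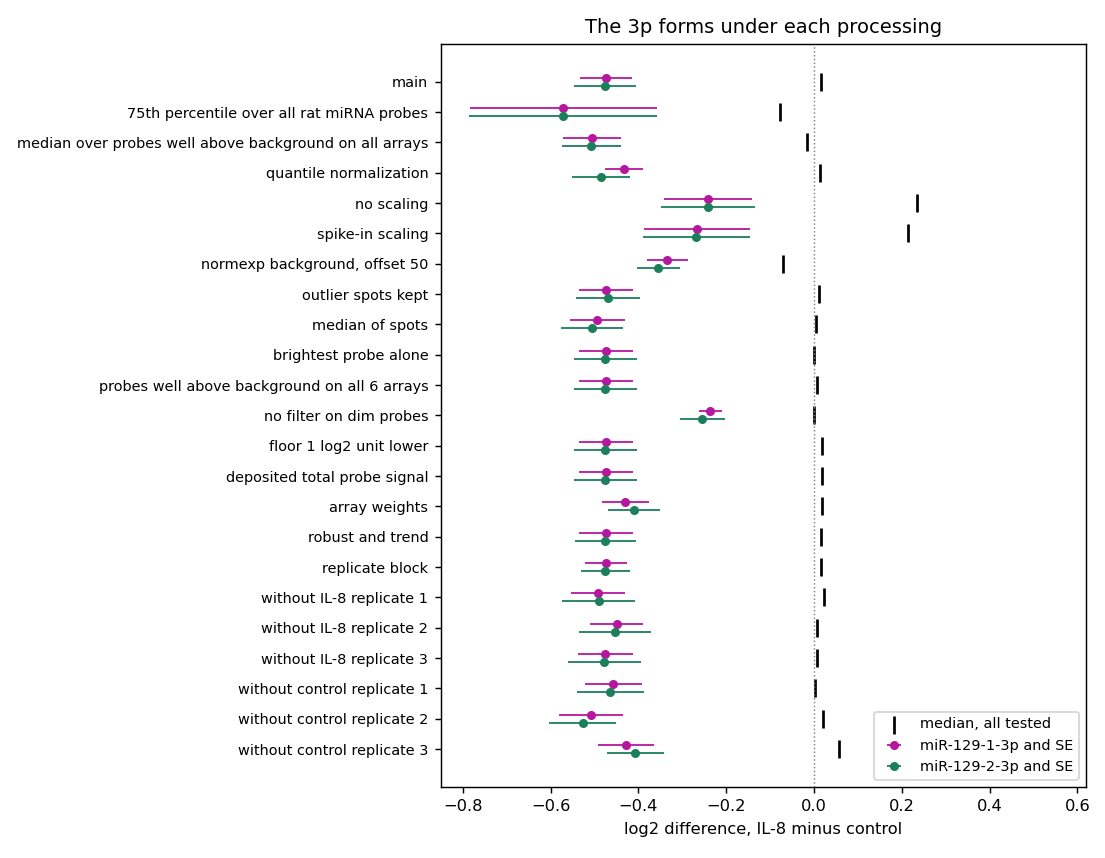
Log2 difference (IL-8 minus control) of miR-129-1-3p (magenta) and miR-129-2-3p (green) under the main processing and each of the 22 alternatives, with bars for the SE of the limma fit and black ticks for the median of all tested miRNAs. Both forms lie left of 0 in every line; without scaling and with spike-in scaling forms and median shift right together.

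The 3p forms differed from each other by nearly the same amount on every array. The gap between them, miR-129-2-3p minus miR-129-1-3p on the log2 scale, was 0.54, 0.52 and 0.60 on control arrays 1 to 3 and 0.55, 0.56 and 0.56 on IL-8 arrays 1 to 3. The forms were read by different probes, which can differ in brightness, so the size of the gap is no ratio of amounts. The mean gap was 0.56 ± 0.04 in control and 0.55 ± 0.01 with IL-8 (SD, n = 3 each). The groups overlapped, and over all 6 arrays the gap varied by 0.081. The part of the shared probe sequence in this was not tested.

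**Figure D4:**
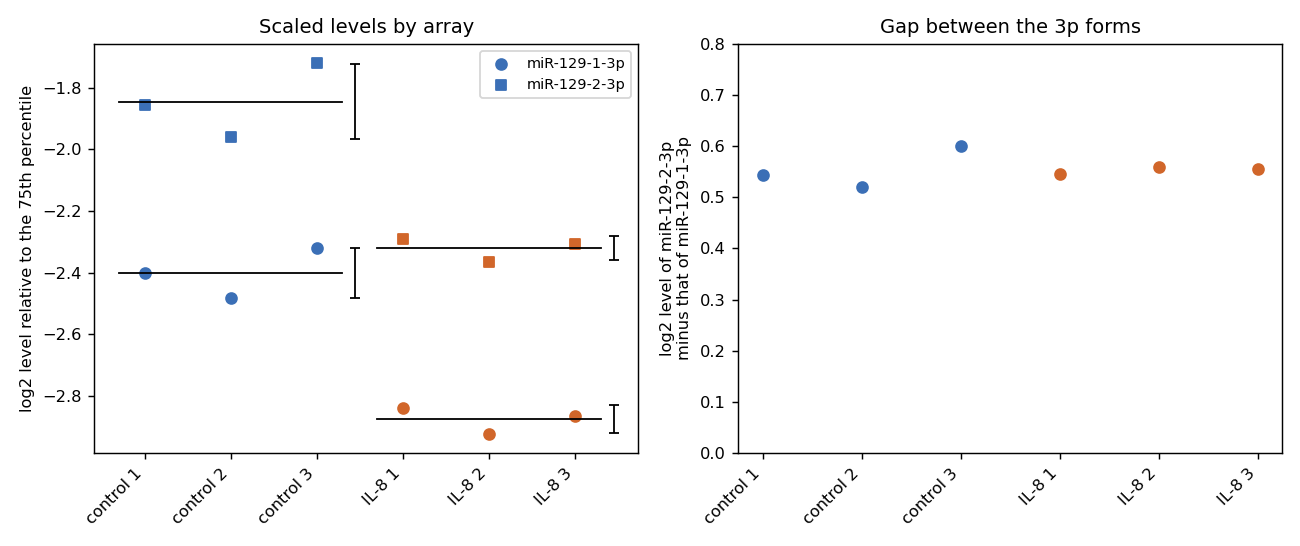
Left, log2 level of miR-129-1-3p (circles) and miR-129-2-3p (squares) on each array relative to its 75th percentile, control in blue and IL-8 in orange, with group means (lines) and SD (bars, n = 3). Right, the gap between these levels on each array, which lay between 0.52 and 0.60 with overlapping groups.

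The tested miRNAs with the most similar profile were found by the root mean square difference of log2 levels, each centred on its mean over the 6 arrays. For miR-129-1-3p the nearest was miR-129-2-3p at 0.024, against a median of 0.262 over the tested miRNAs. miR-210-3p, which hypoxia is known to induce, followed at 0.040. Its level was -4.37 ± 0.02 in control and -4.87 ± 0.04 with IL-8 (SD, n = 3 each). The fall passed the limma test (adjusted p = 0.00229) but not with spike-in scaling (0.0647) or the 75th percentile over all probes (0.410). miR-210-3p rested on 1 probe of low signal (mean 20.8 over the 6 arrays), and its shorter probe passed on no array. The level with IL-8 lay close to the floor of the scale (-5.03). miR-132-3p, known as responsive to the transcription factor CREB, came next at 0.075, then miR-188-5p at 0.105 and miR-34c-5p, a p53-responsive miRNA, at 0.130. The list for miR-129-2-3p began with miR-129-1-3p and the same 3 of these miRNAs, miR-210-3p at 0.063, miR-132-3p at 0.076 and miR-188-5p at 0.083, and ended with miR-1839-3p at 0.134. All were lower with IL-8 under the main processing, and that difference is part of the measure. miR-188-5p, miR-34c-5p and miR-1839-3p did not pass the limma test there (adjusted p = 0.0706, 0.0512 and 0.153). They passed in 8 of 21, 10 of 22 and 3 of 22 alternatives. Without scaling miR-34c-5p and miR-1839-3p stood at -0.022 and -0.015. miR-188-5p was at the floor of the scale on 2 IL-8 arrays, and its difference of -0.47 ± 0.12 (SE) is uncertain.

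With deviations from the group means alone, the 3p forms differed from each other by 0.024. From miR-210-3p the difference was 0.037 for miR-129-1-3p and 0.061 for miR-129-2-3p. From miR-132-3p it was 0.049 and 0.050, so miR-132-3p was nearer to miR-129-2-3p than miR-210-3p was. miR-210-3p varied little within groups (SD 0.02 in control, 0.04 with IL-8), so a small difference from it need not mean shared variation. No median over the tested miRNAs was computed for this measure. These figures describe 6 arrays and carry no test.

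Since miR-129 is best known from brain, a list of 18 other neural miRNAs was set beside it. Of these, 12 were well above background on no array, among them miR-124-3p and miR-9a-5p, which define neurons and neural progenitors. Over all rat miRNAs the share was no lower, with 537 of 719 on no array. miR-7a-5p passed on 3 arrays and was not tested. The 5 tested members were miR-128-3p, miR-132-3p, miR-212-3p, miR-218a-5p and miR-219a-5p, and their median log2 difference was -0.018, against 0.016 over all tested miRNAs. miR-132-3p alone passed the test under the main processing, falling by 0.36 ± 0.07 (SE) on the log2 scale from -3.63 ± 0.10 to -3.99 ± 0.04 (SD, n = 3 each; limma adjusted p = 0.0218, and 0.00103 to 0.687 over its alternatives). It did not pass in 9 of the 22 alternatives, which include leaving out control replicate 2 (adjusted p = 0.0523 by limma) or IL-8 replicate 1, 2 or 3 (0.103, 0.157 and 0.169). miR-128-3p stood at -0.15 ± 0.06 (SE), miR-218a-5p at 0.26 ± 0.10 (SE), miR-219a-5p at -0.02 ± 0.10 (SE) and miR-212-3p, the hairpin neighbour of miR-132, at 0.06 ± 0.07 (SE). Without scaling miR-128-3p and miR-219a-5p lay above 0, and miR-218a-5p (0.49, limma adjusted p = 0.0253) and miR-212-3p (0.29, limma adjusted p = 0.0337) passed as higher. miR-218a-5p also passed as higher with spike-in scaling (0.46, limma adjusted p = 0.0215), with array weights (0.28, 0.0343) and without control replicate 3 (0.38, 0.00575). miR-128-3p passed as lower with the normexp background (-0.17, limma adjusted p = 0.0189). The share of the list called lower was 1 of 5, beside 2.99% over all tested miRNAs.

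The array miRNAs placed near the miR-129 genes were listed as well. Within 10 Mb of the miR-129-1-3p probe on chromosome 4 (rn4) the array places 10 miRNAs. Of these, 7 were well above background on no array, a share close to the 537 of 719 over all rat miRNAs. The nearest were both arms of miR-96 and of miR-183, sensory-organ miRNAs, at 1.18 Mb, all 4 well above background on no array. miR-29a-3p and miR-29b-3p, repressors of collagen genes, lie 2.22 Mb away and were the 2 detected on all arrays. Their log2 differences with IL-8 were 0.02 ± 0.09 (SE) and 0.22 ± 0.13 (SE), and neither passed under the main processing. miR-29b-3p passed as higher without scaling (0.45, limma adjusted p = 0.0443) and with spike-in scaling (0.42, limma adjusted p = 0.0295). No array miRNA was placed within 10 Mb of the miR-129-2-3p probe on chromosome 3.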

How the data were processed

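Per the labels' protocols, total RNA (RNA integrity numbers 9.5 to 10.0) carrying spike-ins was labelled with Cyanine 3-pCp, and each sample had 1 array. The deposited values are spot intensities, with a spatial background trend subtracted by Agilent Feature Extraction 10.10.1.1 per the file headers, with no normalization between arrays. No rat spot was saturated. Spots called outliers were left out and the others averaged per probe. A probe counted as well above background when over 50% of its spots carried that call. Arrays were divided by their 75th percentile over 264 probes, floored at a log2 level of -5.03 and log2-transformed. Tested miRNAs had a probe passing on all 3 arrays of at least 1 group, and such probes were averaged. The groups were compared with limma 3.58.1 in R 4.3.3 (threshold 0.05 after Benjamini-Hochberg adjustment over 167 miRNAs), tested on simulated data. A shift common to every miRNA is lost in this scaling. The deposited table of total probe signal equalled the array files within a relative tolerance of 0.0001. Sequences came from RefSeq (GRCr8). Likeness, lists and neighbours followed fixed rules: the 5 nearest profiles for each 3p form, the tested neural miRNAs, and array miRNAs within 10 Mb. miR-322-3p was named after its values were seen. Members and lists were chosen with earlier results of these data known. Alternatives were other scalings, background corrections, probe summaries, filters, floors and fits, a replicate block, and the omission of each array.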

Additional observations from a re-analysis of the deposited data

How the results depend on the processing

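Both 3p forms were lower with IL-8 under all 22 alternatives, and for each the difference moved by less than 1 SD between replicates in 17. Several of these 17 could not move it, since each form rests on 1 probe that lies above the floor on every array. The brightest probe, the filter on all 6 arrays, the lower floor, the robust and trend fit and the replicate block left -0.4738 and -0.4753 unchanged. Those settings say nothing about stability. The values that moved further were, for miR-129-1-3p and miR-129-2-3p, -0.57 and -0.57 with the 75th percentile over all rat probes, -0.24 and -0.24 without scaling, -0.27 and -0.27 with spike-in scaling, -0.33 and -0.35 with the normexp background, and -0.24 and -0.25 with no filter on dim probes. Leaving out 1 array gave -0.51 to -0.43 and -0.53 to -0.41. The count of called miRNAs, 10 as reported, was 0 with the 75th percentile over all probes (9 at unadjusted p under 0.05), 1 with no filter, 17 with quantile normalization, 24 with normexp, 28 with array weights, 31 with spike-in scaling (31 higher, 0 lower) and 51 without scaling (50 higher, 1 lower). Leaving out 1 array gave 1 to 29, with 1 without IL-8 replicate 2 or IL-8 replicate 3, 3 without IL-8 replicate 1, 5 without control replicate 2 and 29 without control replicate 3. With the normexp background 1 was higher and 23 lower, and with median scaling 5 and 10. The replicate block gave 8 calls and left both differences at -0.47 and -0.48. Same-numbered arrays correlated in their deviations from the group means at 0.288, 0.330 and 0.0857. Of the control arrays 2 of 3 matched their own number best, as did 2 of 3 IL-8 arrays. With so few arrays these values do not settle whether the numbers pair the samples, and the main fit left them unpaired.

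The same alternatives were run, by a choice made after seeing the data, for 11 other miRNAs: the nearest profiles, the tested neural miRNAs, miR-29a-3p and miR-29b-3p (miR-188-5p had 21 alternatives). Among these 11, the sign turned for 4, none of them past the threshold where it did. miR-212-3p stood at -0.036 with the 75th percentile over all probes and -0.019 with the brightest probe. miR-29a-3p stood at -0.076 with that percentile, -0.011 with median scaling, -0.013 with array weights, and between -0.035 and 0.082 with 1 array left out. miR-128-3p stood at 0.079 without scaling and 0.053 with spike-in scaling. miR-219a-5p stood at 0.19 without scaling, 0.18 with spike-in scaling, 0.014 with the median of spots, 0.022 with array weights, and between -0.089 and 0.10 with 1 array left out. Signal over background limits miR-129-5p and the shorter probes, for which no change could be measured.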
